A study of Homo sapiens with 2 samples.

Results

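The mitochondrial respiratory chain subunits described here are the nuclear genes for the building blocks of complexes I to V and for cytochrome c. They were found by gene name. A probe set, the group of probes on the array that reads 1 transcript region, was a member when its single annotated symbol began with NDUFA, NDUFB, NDUFC, NDUFS, NDUFV, UQCR, COX4, COX5, COX6, COX7, COX8 or ATP5, or was one of the listed SDH genes, CYC1 or CYCS. The NDUFAF assembly factors, 2 pseudogene probe sets and 4 probe sets of noncoding transcripts that share these prefixes were left out. This gave 155 probe sets for 79 genes, of 19775 named genes on the array: 33 genes of complex I, 3 of complex II, 7 of complex III, 17 of complex IV, 18 of complex V and 1 for cytochrome c. A further 15 probe sets carry several symbols, among them those for UQCRH and NDUFC2, and name no single member.

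The samples were 2 cultures of human prostate cancer cells. C4-2B is an established androgen-responsive line that is sensitive to the antiandrogen enzalutamide, and C4-2B-MDVR is a resistant line selected from it by long exposure to that drug. Both grew in RPMI-1640 medium with fetal bovine serum and neither was treated before RNA was taken, so the comparison is of the lines and not of drug exposure at harvest. Each line is represented by 1 Affymetrix array, so there is no spread between replicates, neither a p-value nor an SE exists, and precision is limited by having so few arrays. The labels do not say whether C4-2B-MDVR is 1 clone or a mixed population. The free-text description of its array names another resistant line, TaxR, against docetaxel, so "C4-2B-MDVR" below means the array that carries that name as title and cell line.

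Respiratory chain complexes sit in the inner mitochondrial membrane. Complex I takes electrons from NADH and complex II takes them from succinate, both pass them through ubiquinone to complex III, cytochrome c carries them to complex IV, and complex IV hands them to oxygen. Complexes I, III and IV pump protons, and complex V, the ATP synthase, uses the return flow to make ATP. A small part of the subunits is encoded by mitochondrial DNA and the rest by the nuclear genes described here. Prostate luminal cells are known for secreting citrate in place of oxidizing it, and prostate cancer cells for oxidizing it again.

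All 6 luminal prostate markers measured (KLK3, HOXB13, FOLH1, KRT8, KRT18 and EPCAM) were above the detection floor on the brighter array, and KLK3, the gene for prostate-specific antigen, was the 1 of them that differed widely, with an intensity of 8379 in the parent line and 172 in C4-2B-MDVR. The blood marker PTPRC was under the floor on both arrays, as were KRT14 of the 2 basal markers and COL1A2 and LUM of the 4 stromal markers. The stromal markers COL1A1 (255 and 217) and DCN (46.9 and 54.0), the endothelial markers PECAM1 (58.9 and 67.9) and VWF (80.4 and 73.6) and, in C4-2B alone, the basal marker KRT5 (43.5 and 37.0) were above it, and their part in any result was not tested. The floor was each array's median intensity (C4-2B 41.9, C4-2B-MDVR 43.5), read on the brighter array of a gene. Of the 79 members 77 passed it, and COX7A1 (28.6 and 36.6) and COX8C (7.56 and 7.42), both isoforms of restricted tissues, did not.

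Promoters of 4 members are shown because NDUFB4 was the lowest of the subunits, NDUFB8 and COX5B were among the higher ones, and CYCS is a textbook target of NRF1, the nuclear respiratory factor. Each is the 250 bases before the annotated start, from RefSeq (GRCh38.p14), read 5' to 3' on the gene's strand: NDUFB4 at chr3:120596086-120596335 on the + strand, NDUFB8 at chr10:100529924-100530173 on the - strand, COX5B at chr2:97645812-97646061 on the + strand and CYCS at chr7:25125261-25125510 on the - strand. These windows overlap no annotated gene. Capitals mark letters that match a searched motif on either strand.

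NDUFB4: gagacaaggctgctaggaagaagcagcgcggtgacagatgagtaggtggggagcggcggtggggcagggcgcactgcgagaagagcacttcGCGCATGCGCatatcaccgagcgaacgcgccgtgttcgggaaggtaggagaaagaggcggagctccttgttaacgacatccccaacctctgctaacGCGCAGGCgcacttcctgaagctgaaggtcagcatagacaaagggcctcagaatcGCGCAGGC
NDUFB8: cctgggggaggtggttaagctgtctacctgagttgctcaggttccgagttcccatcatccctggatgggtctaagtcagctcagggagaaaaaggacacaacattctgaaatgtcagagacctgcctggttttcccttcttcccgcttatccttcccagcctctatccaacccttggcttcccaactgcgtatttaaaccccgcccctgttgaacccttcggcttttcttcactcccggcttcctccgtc
COX5B: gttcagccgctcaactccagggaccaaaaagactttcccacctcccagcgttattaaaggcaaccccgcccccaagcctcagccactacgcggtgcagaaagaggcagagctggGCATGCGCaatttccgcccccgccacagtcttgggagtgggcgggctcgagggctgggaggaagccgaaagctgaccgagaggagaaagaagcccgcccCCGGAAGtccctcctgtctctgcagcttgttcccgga
CYCS: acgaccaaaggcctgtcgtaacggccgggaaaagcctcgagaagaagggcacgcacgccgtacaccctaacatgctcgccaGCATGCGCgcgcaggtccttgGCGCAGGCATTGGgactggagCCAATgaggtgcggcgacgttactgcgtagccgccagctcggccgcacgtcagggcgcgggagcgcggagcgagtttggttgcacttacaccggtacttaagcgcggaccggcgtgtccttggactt

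NDUFB4 held 4 matches to the NRF1 letters GCGCANGC, beginning 159, 157, 63 and 8 bases before the start, the first pair overlapping on opposite strands. COX5B held 1 NRF1 match and 1 match to CCGGAAG, the core bound by ETS factors such as GABPA. CYCS held 2 NRF1 matches and 2 CCAAT boxes, while NDUFB8 held no match in the printed window. Over the 300 bases from 250 before to 50 after the start, promoters were found for 67 of the 79 members and for 15843 protein-coding genes. The NRF1 letters occurred in 28 of the 67 members (41.8%) and in 16.7% of all promoters. CCGGAAG occurred in 18 (26.9%) against 14.2%, the YY1 letters AAGATGGC in 10 (14.9%) against 3.91%, the ERR letters CAAGGTCA in 4 (5.97%) against 1.03%, and CCAAT in 24 (35.8%) against 36.4%. All were sought on both strands, and a match is a description of letters only.

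The median differences of members with and without these letters are given as a description. Throughout, a difference is the log2 intensity of the resistant line minus that of the parent line, and paired intensities stand in the order parent, resistant. The median difference was -0.06 over the 27 members above the floor with the NRF1 letters and -0.02 over the 39 without. It was -0.03 over the 18 with CCGGAAG and -0.03 over the 48 without, and 0.0037 over the 10 with the YY1 letters against -0.03 over the 56 without. The wider gaps were those of the ERR letters, at -0.14 over 4 with and -0.02 over 62 without, and of CCAAT, at 0.04 over 24 with and -0.07 over 42 without. NDUFB4 (-0.82) and COX5B (0.32 on its brightest probe set) both hold the NRF1 letters.

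The respiratory chain subunits differed little between the lines. The median difference of the 77 genes was -0.04, against 0.04 for all 13437 named genes above the floor. There were 33 members above 0 and 44 below 0, or 57.1% below, where 44.8% of all named genes were below 0. Median centring, which shifts every gene by the same amount, put 27 above and 50 below. It also moved the median of all named genes to -0.01. Their share below 0 was not recounted, so the 44.8% is no background for those counts. Of the 77, 2 were 1.5-fold or more lower (2.60%), where 9.32% of all named genes were, and 0 were 1.5-fold or more higher, where 8.26% of all were. No member reached a 2-fold difference in either direction: 0 were 2-fold or more higher and 0 lower, where 3.17% and 3.5% of all named genes were.

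Most of these subunits give bright signals, so they were also set beside the 1712 named genes whose mean level lay between the 10th and 90th percentile of the members (log2 9.83 to 12.7), a background added after the data were seen. Those genes had a median of -0.05, and 55.0% of them were below 0. Of them 4.44% were 1.5-fold or more higher and 8.29% lower. The middle 50% of differences spanned 0.31 for the subunits, from -0.20 to 0.11, against 0.43 for the genes of like level and 0.47 for all. The share of members below 0 was thus near that of equally bright genes, while the span of their differences was narrower. That narrower span did not hold in complex I, whose 33 genes spanned 0.46.

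**Figure D1:**
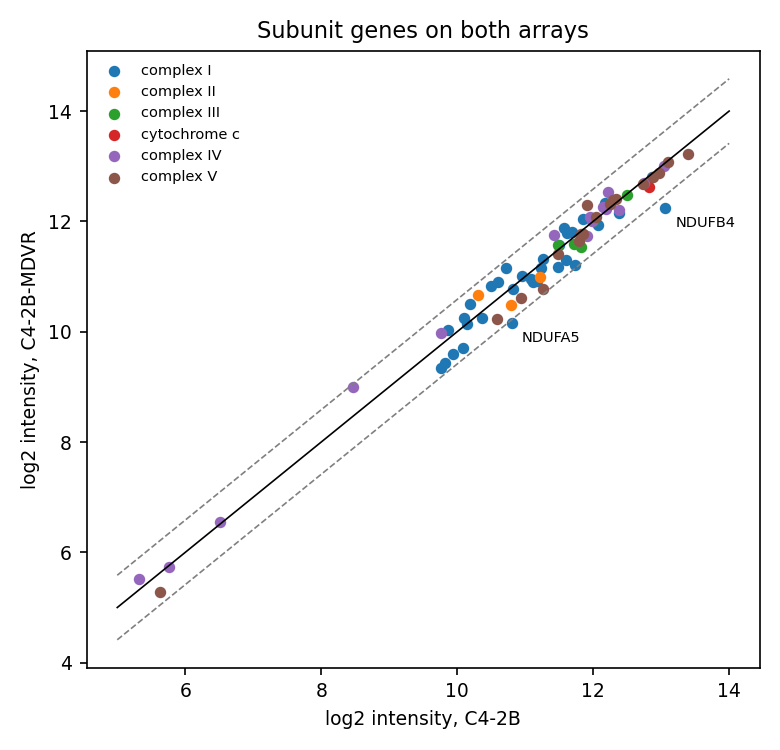
Log2 intensity of the 77 subunit genes on the C4-2B array (x axis) and the C4-2B-MDVR array (y axis), 1 point a gene, coloured by complex. The solid line marks equal values and the dashed lines 1.5-fold; NDUFB4 and NDUFA5 are the 2 points outside them.

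Complex I, the entry point for NADH, held both subunits beyond 1.5-fold on their brightest probe sets. NDUFB4, an accessory subunit of the membrane arm, read 8534 and 4847 on its bright probe set, a difference of -0.82 or 1.76-fold lower. Its dim probe set read 66.9 and 35.2, the latter under the floor, a difference of -0.93, so both readings of the gene were lower. NDUFA5, an accessory subunit of the matrix arm, read 1784 and 1141 (-0.65, or 1.56-fold lower), and its second probe set was under the floor on both arrays. With the mean of its probe sets NDUFA5 was at -0.54, within 1.5-fold.

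The complex as a whole was not shifted to that extent. Over its 33 genes the median was -0.06, with 15 above 0 and 18 below, and the middle 50% ran from -0.30 to 0.16. That span of 0.46 was wider than in complexes III (0.13), IV (0.23) and V (0.18). No test of that difference was made, as the design has 1 array a line.

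Among the nuclear core subunits of complex I, those that carry out electron transfer, 5 were measured and their median was -0.13. NDUFV1, which binds NADH and the flavin, read 1817 and 1754 (-0.05). NDUFV2, its iron-sulfur partner, read 2854 and 2323 (-0.30). NDUFS7, which holds the last iron-sulfur cluster before ubiquinone, read 977 and 778 (-0.33), with a dim second probe set at 0.01. These core subunits were lower in 4 of 5 cases, none by 1.5-fold. NDUFS3 read 1322 and 1211 (-0.13). NDUFS1, the largest iron-sulfur subunit, was the exception, at 928 and 1051 (0.18). Its dimmer probe sets were at -0.18 and, with the C4-2B-MDVR reading of 34.0 under the floor, at -0.73. A further core subunit, NDUFS8, is read only by probe sets that also carry microRNA symbols, the brightest at 1709 and 1748 (0.03), and a probe set annotated to both NDUFS3 and PTPMT1 was at 0.02.

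The 28 accessory subunits of complex I had a median of -0.03 and divided evenly, 14 above 0 and 14 below, and quantile normalization turned that median to 0.01. After NDUFB4 and NDUFA5 the lowest were NDUFS6, a zinc-binding subunit of the matrix arm, at 3420 and 2370 (-0.53), NDUFB7 at -0.41, NDUFS4 at -0.39 and NDUFA7 at -0.37. The highest was NDUFB11 of the membrane arm, at 1681 and 2290 (0.45). NDUFB8, also of the membrane arm, read 1449 and 1819 (0.33), and its 3 probe sets were all higher, from 0.32 to 0.55. NDUFB4, NDUFB7, NDUFB8 and NDUFB11 lie in the same arm, so its members differed in both directions.

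NDUFC1, another membrane arm subunit, read 3107 and 2517 (-0.30) on its brighter probe set. The dimmer one read 104 and 48.4, a difference of -1.11, so the size of the difference depends on the probe set. NDUFAB1, the mitochondrial acyl carrier protein, read 7474 and 7158 (-0.06), and NDUFV3 was at 0.00030. By family the 13 NDUFA genes had a median of 0.06, the 11 NDUFB genes -0.07, the 5 NDUFS genes -0.33 and the 3 NDUFV genes -0.05.

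**Figure D2:**
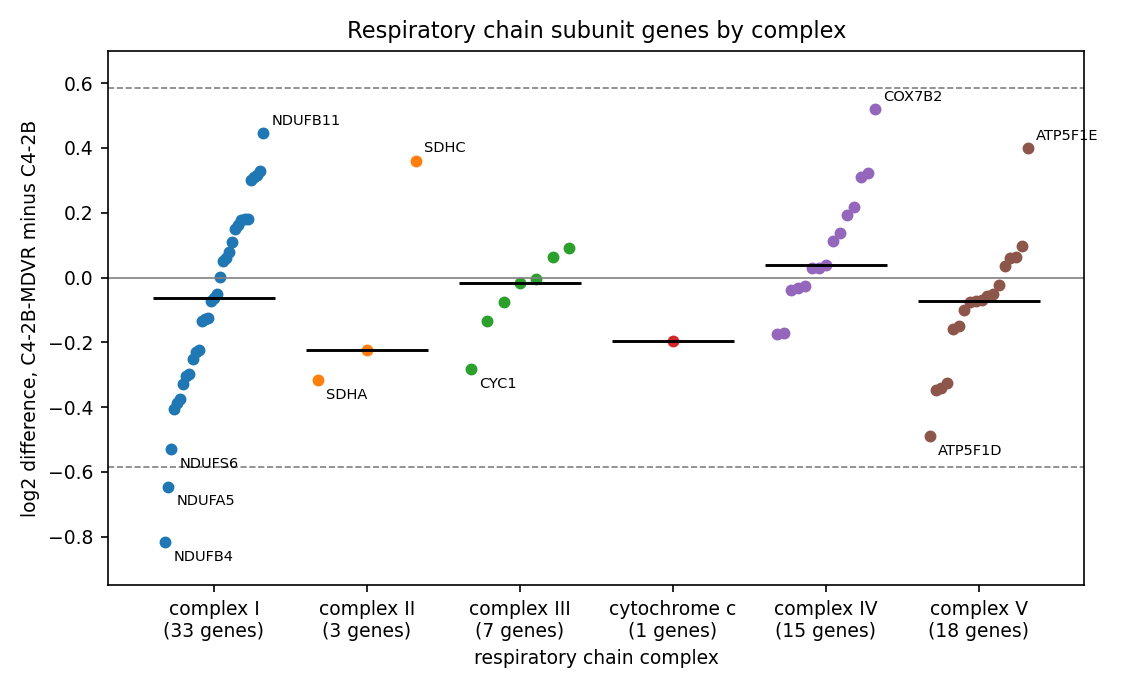
Log2 difference, C4-2B-MDVR minus C4-2B, for the subunit genes above the floor, 1 point a gene, grouped by complex and sorted within each; black bars are medians and dashed lines mark 1.5-fold. The 33 complex I genes run from -0.82 to 0.45, and the 7 complex III genes lie between -0.28 and 0.09.

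Complex II, succinate dehydrogenase, is shared by the citrate cycle and the respiratory chain. SDHA, the flavoprotein, read 1777 and 1426 (-0.32), and SDHD, a membrane anchor, read 2371 and 2031 (-0.22). SDHC, the other anchor, read 1266 and 1626 (0.36). Its 7 probe sets did not give 1 answer. The 4 with high signals were higher in C4-2B-MDVR, from 0.30 to 0.67, and the 3 dim ones were lower, from -0.71 to -0.33, so no direction can be given for the gene as a whole. The probe set for SDHA bears a suffix for sequence shared with other transcripts, and a probe set annotated to SDHA and 3 of its pseudogenes was at 0.20.

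Complex III, which passes electrons from ubiquinol to cytochrome c, was the most even of the larger groups, with a median of -0.02 over 7 genes, 2 above 0 and 5 below, and loess scaling turned that median to 0.01. CYC1, the cytochrome c1 subunit, read 3606 and 2967 (-0.28). UQCR11, a small subunit, read 3372 and 3074 (-0.13). UQCRC1, a core protein, read 2858 and 3044 (0.09), and the other core protein UQCRC2 read 3700 and 3509 (-0.08), with a second bright probe set at 0.22. UQCRQ, also known as the ubiquinone-binding protein, read 4107 and 4094 (-0.0046), close to the same value on both arrays. CYCS, cytochrome c itself, read 7225 and 6303 (-0.20), and its second probe set above the floor was at -0.33.

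Complex IV, cytochrome c oxidase, had a median of 0.04 over 15 genes, 10 above 0 and 5 below, and median centring turned that median to -0.01. COX5B, a zinc-binding subunit, read 2753 and 3443 (0.32). Its 3 bright probe sets were at 0.26, 0.32 and 0.42 and its dim one at -0.26. COX6A1, the widely expressed form of subunit 6A, read 4780 and 5924 (0.31). COX7A2L, which joins complexes III and IV in supercomplexes, read 872 and 1014 (0.22). The lowest were COX5A, at 5316 and 4707 (-0.18), and COX6B1, at 3833 and 3407 (-0.17). COX7B read 3946 and 4344 (0.14) on its bright probe set and -0.55 on its dim one.

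Tissue-restricted isoforms of complex IV had low signals apart from COX7B2. COX7B2, a paralogue of COX7B known from testis, read 355 and 509 (0.52), the largest higher difference of all 77 members. COX6B2, the testis form of subunit 6B, read 39.9, under the floor, and 45.6, just above it. COX4I2, the form of subunit 4 known from lung, read 91.1 and 93.6 (0.04), and COX6A2, the form of heart and skeletal muscle, read 54.4 and 53.2 (-0.03). Each of the 4 isoforms above the floor was read by 1 probe set.

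COXFA4, formerly named NDUFA4 and now counted to complex IV, falls outside the member rule by its present symbol. It read 3123 and 4996 (0.68), more than 1.5-fold higher, on 1 probe set. That is beyond the range of the 15 complex IV members. COXFA4L2, its paralogue known from hypoxic cells, read 55.1 and 58.1 (0.08).

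Complex V, the ATP synthase, had a median of -0.07 over 18 genes, 5 above 0 and 13 below. The catalytic subunits ATP5F1A, at 10737 and 9608 (-0.16), and ATP5F1B, at 7526 and 7177 (-0.07), were among the brightest members. Within the central stalk the subunits went separate ways. ATP5F1D, the delta subunit, read 2463 and 1754 (-0.49), with its second probe set at -0.43. ATP5F1E, the epsilon subunit that it binds, read 3838 and 5061 (0.40), with its second probe set under the floor. ATP5F1C, the gamma subunit, read 5004 and 5358 (0.10), and its 4 probe sets ranged from -0.14 to 0.10.

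Of the 3 genes for the identical c subunit of the rotor ring, ATP5MC1 read 1972 and 1573 (-0.33), while ATP5MC2 and ATP5MC3 were both at -0.07. ATP5IF1, the inhibitor that stops the enzyme from running backwards, read 1531 and 1203 (-0.35), but its 3 probe sets ranged from -0.35 to 0.08. ATP5MF, a membrane subunit, was counted at -0.34 on a probe set near the floor, 49.5 and 39.0, the latter under it, and was at -0.19 with that value raised to the floor. A bright probe set annotated to both ATP5MF and ARMC2-AS1 was at 0.06, so the value of ATP5MF rests on the choice of probe set. ATP5MG read 6777 and 6547 (-0.05) on its brightest probe set. Its probe set without a suffix for shared sequence read 728 and 430 (-0.76), beyond 1.5-fold lower, so its value rests on that choice too.

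Several readings of 1 gene were the only repeat measurement in these data, and they come from the same RNA. Of 34 members with more than 1 probe set above the floor, 19 had all of them on the same side of 0. The median SD between probe sets of a member was 0.18, and of all 6261 such named genes 0.20. The median range from the lowest to the highest probe set was 0.27 for members and 0.34 for all such named genes. Most members' differences were no larger than the 0.27 of members: 51 of 77 were within 0.25 of 0. Probe sets lay more than 1.5-fold apart in 6 members, and in 4 of these, SDHC, NDUFS1, COX5B and COX7B, on opposite sides of 0, where the spread of NDUFS1 rests on a reading under the floor. In each of these 4 the lowest value came from a dim probe set. In SDHC, COX5B and NDUFS1 every lower probe set also lacked the suffix for shared sequence that every higher one bears. In COX7B neither bears it. NDUFB4 and ATP5F1D, in contrast, were lower on both of theirs.

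**Figure D3:**
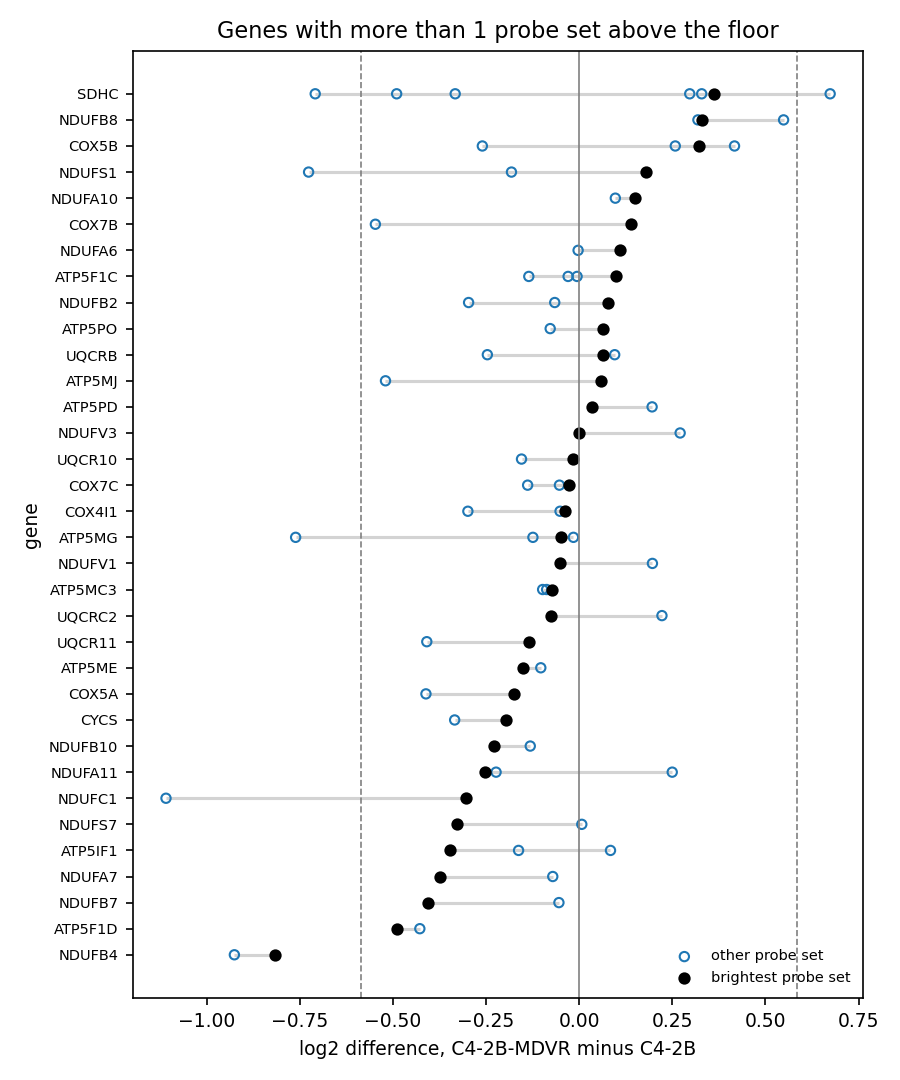
Log2 difference of each probe set above the floor for the 34 subunit genes that have more than 1. Filled points are the brightest probe set, which stands for the gene, open points the others, and dashed lines mark 1.5-fold. NDUFB4 sits apart at the bottom with both points below -0.8 (the open one with its C4-2B-MDVR reading under the floor), and SDHC spans from -0.71 to 0.67.

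The mitochondrial DNA-encoded partners of these subunits had a median near 0, where the array reads them. Over 7 of these genes it was 0.0098, and median centring turned it to -0.04. Their differences spanned 0.66 from the 10th to the 90th percentile, against 0.65 for the subunits. COX2 read 17621 and 17741 (0.01), ND4 17618 and 18509 (0.07) and ATP6 16711 and 17163 (0.04). These signals lie close to the highest value in the table, 20840 in C4-2B, where differences can be compressed. COX1, the catalytic subunit of complex IV, read 16736 and 11702 (-0.52), and ND6, the subunit coded on the other strand of mitochondrial DNA, read 167 and 114 (-0.55). None of the 7 was beyond 1.5-fold.

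Assembly factors, which help to build the complexes but are not part of them, held larger differences than the subunits. Of the 55 that passed the floor, 7 lay at least 1.5-fold lower (12.7%), against 9.32% of all named genes, and 0 were higher, against 8.26%. The share lower is near that of all genes, so it is no result about the list, and its median was -0.12. For complex II, SDHAF4, which acts on the flavin-bound SDHA, read 74.5 and 21.4, the latter under the floor. The measured difference was -1.80, and against the floor the gene was at least 1.71-fold lower. SDHAF3 was at -0.55, SDHAF2 at -0.24 and SDHAF1 at -0.13. All 4 factors of complex II were below 0, where 61.8% of all assembly factors and 44.8% of all named genes were.

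LYRM7, the chaperone of the Rieske iron-sulfur protein of complex III, read 869 and 360 (-1.27). On 2 more probe sets that passed the floor it was at -1.23 and -0.59, so every reading of it was lower. UQCC2, an early complex III factor, was at 102 and 59.1 (-0.78). CMC2, linked to complex IV assembly, read 2991 and 1082 (-1.47) on its 1 probe set, and COX15 of heme A synthesis was the highest complex IV factor at 0.53.

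FMC1, a complex V assembly factor, read 2002 and 983 (-1.03) on 1 probe set, and ATPAF1, which assembles the catalytic head, was at 0.41, with another probe set at -0.51. Among 17 complex I factors ECSIT (-0.67) and NDUFAF5 (-0.63), which modifies the NDUFS7 protein, were beyond 1.5-fold lower, followed by NUBPL (-0.55) and NDUFAF2 (-0.51). NDUFAF7 was at 0.51 with probe sets from -0.79. The factors measured above the floor on both arrays and more than 2-fold lower were CMC2, LYRM7 and FMC1.

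Regulators of mitochondrial gene expression had a median of -0.10 over 15 genes, which turned to 0.02 without a floor, with a floor at the 25th percentile, or without shared-sequence probe sets. PPARGC1B, a coactivator of mitochondrial genes, read 169 and 79.3 (-1.09) on its brightest probe set, but its other 3 probe sets were between -0.04 and 0.19. PPARGC1A was under the floor on both arrays. NRF1 was at -0.10, GABPA at 0.32 with another probe set at -1.17, its partner GABPB1 at -0.42, YY1 at -0.31, ESRRA at 0.03 and TFAM, which packages mitochondrial DNA, at -0.30 with all 4 probe sets below 0. The mitochondrial DNA polymerase subunits POLG (0.32) and POLG2 (0.41) were the other larger values of the list. PPARGC1B was the 1 regulator of 15 beyond 1.5-fold lower (6.67%), against 9.32% of all named genes, and 0 were higher, against 8.26%. Neither share exceeds that of all genes, so the count is no result about the list.

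Neighbouring mitochondrial functions also had medians below 0, and their difference from the subunits was not tested. The 1712 genes of like level to the subunits, taken whatever their function, had a median of -0.05 too. The 75 mitochondrial ribosomal protein genes had a median of -0.06, with 3 of them 1.5-fold or more lower, or 4% against 9.32% of all named genes (MRPS2 at -0.70, MRPL41 at -0.68 and MRPL34 at -0.61) and MRPS18B next at -0.58. The 22 protein import genes were at -0.11, with 2 lower (9.09%), TIMM10 (-0.68, and -0.70 on its other probe set) and TIMM13 (-0.60), then HSPE1 (-0.30) and TOMM5 (-0.28). The 16 citrate cycle genes were at -0.14, with 2 lower (12.5%), DLAT of pyruvate dehydrogenase (-0.73) and SUCLA2 (-0.60). IDH2 (0.79, but 0.09 on its other probe set) was the 1 that was higher (6.25%, against 8.26% of all), and IDH3A was at 0.52. The 51 cytosolic ribosomal protein genes, outside mitochondria, had a median of 0.01 and 0 beyond 1.5-fold, with RPL3 (0.34), RPS19 (0.33), RPL12 (0.28) and RPS9 (0.21) as their largest values. That median turned to -0.04 with median centring and to -0.16 without the probe sets marked _s_at, _x_at or _a_at, suffixes for sequence shared between transcripts.

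**Figure D4:**
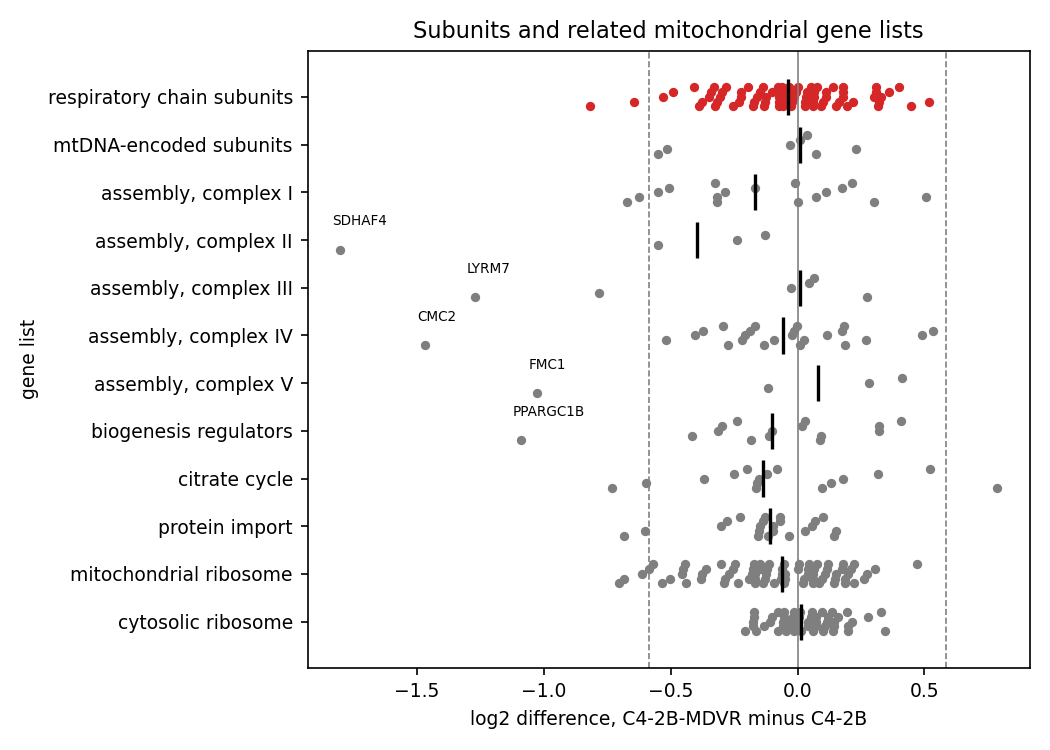
Log2 difference, C4-2B-MDVR minus C4-2B, for genes above the floor in the subunit list (red) and related lists (grey), 1 point a gene spread vertically for visibility; black bars are medians, dashed lines mark 1.5-fold and genes with a measured difference of 2-fold or more lower are named. CMC2, LYRM7, PPARGC1B and FMC1 lie below -1, where no subunit does. SDHAF4 is drawn at its measured -1.80, but its C4-2B-MDVR reading is under the floor and only a bound of 1.71-fold holds.

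Position on the chromosomes was compared because it was not used to choose the members. For each member the median difference of up to 20 of the nearest named protein-coding genes above the floor on both sides was taken, a measure added after the data were seen. Across the 77 members Pearson's r with the member's own difference was 0.29 and Spearman's rho 0.27, a description over genes that share the same 2 arrays. Of all named genes above the floor 44.8% were below 0. NDUFB4 lay among neighbours with a median of 0.07, of which 5 of 20 were below 0. NDUFA5 lay among neighbours at -0.22, 17 of 20 below 0.

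Among other members, some stood apart from their neighbours and some lay on the same side of 0 as theirs. NDUFC1, on chromosome 4, had the lowest neighbour median, -0.64, with 17 of 20 below 0, against its own -0.30. COX7C, on chromosome 5, read 8407 and 8255 (-0.03) among neighbours at -0.43. CYCS, on chromosome 7, was at -0.20 among neighbours at 0.56, of which 2 of 20 were below 0. NDUFS6 (neighbours -0.31) and NDUFS4 (neighbours -0.28), both on chromosome 5, were lower together with theirs. Whether copy number differs between the lines at these places was not tested.

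**Figure D5:**
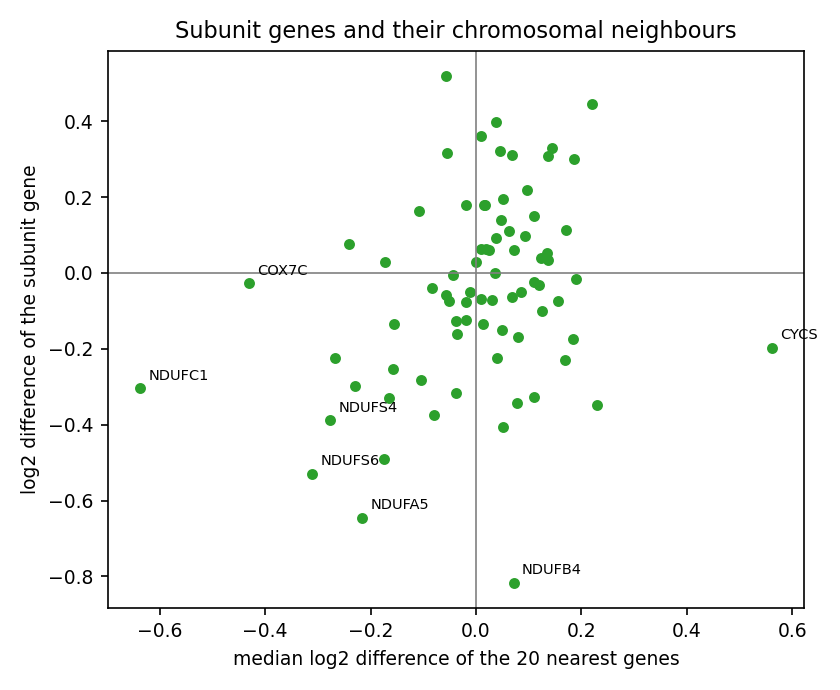
Log2 difference of each of the 77 subunit genes (y axis) against the median log2 difference of its up to 20 nearest measured genes on the chromosome (x axis). CYCS lies far right below 0, NDUFB4 lies low near the vertical axis, and NDUFC1 and COX7C lie far left.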

How the data were processed

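Total RNA of the 2 lines was amplified with the Ambion WT Expression Kit, biotinylated and put on Affymetrix arrays (per the labels' protocols). That kit is made for whole-transcript arrays, whereas the table's probe set names are those of a 3' array, and how these go together is not given in the sources used here. The authors deposited 1 linear intensity per probe set and array. How they corrected background, normalized and summarized is not given in the sources used here. The table held 54675 probe sets and 0 other sample columns. From the deposited intensity log2 was taken with no further scaling.

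Names came from the platform annotation of 2016 and typed by NCBI RefSeq (GRCh38.p14). Of all probe sets 41097 have 1 symbol, 1801 several and 11777 none. The probe set with the highest mean stood for a gene. Some subunits are not analysed here. Members and lists were chosen with earlier results of these data known. With 1 array a line no test was run, and counts past 1.5-fold and 2-fold are descriptions. Values per array were given for members past 1.5-fold, complex I core and complex II subunits, and the 4 largest differences of complexes III to V. They were also given for restricted isoforms and for members whose probe sets lie over 1.5-fold apart on both sides of 0. Of related lists some of the largest differences were named, many as log2 differences only. Other members named were chosen after their values were seen. The gene table was tested on planted differences. Alternatives were scalings, probe set choices and floors. Python 3.11.15, numpy 2.4.6, pandas 2.3.3, statsmodels 0.14.6 and matplotlib 3.10.9 were used.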

Additional observations from a re-analysis of the deposited data

How the results depend on the processing

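Over 10 alternatives (quantile normalization, median centring, loess on level, the mean of probe sets, no _s_at, _x_at or _a_at probe sets, no floor, floors at the 25th and 75th percentile, values under the floor raised to it, and probe sets with several symbols) the subunit median stayed between -0.09 and -0.02. Of 290 recomputed counts and medians 285 moved by no more than the probe set SD of 0.18, or by no more than 1.5 times for counts. That 0.18 is wider than most of these medians, so some medians that changed sign count among the 285. The cytosolic ribosomal median, 0.01 and then -0.16 without _s_at, _x_at and _a_at probe sets, is among them. Without _s_at, _x_at and _a_at probe sets 58 subunits were above the floor, 21 of them above 0 and 37 below. Of these, 3 were 1.5-fold or more lower, ATP5MG (-0.76) besides NDUFB4 and NDUFA5. The median of the complex III assembly factors was -0.48 in that setting. With quantile normalization 1 subunit, COX7B2 (0.60), was 1.5-fold or more higher. With the floor at the 75th percentile the restricted isoforms were COX7B2 alone (0.52). With the mean of probe sets the complex V assembly factors were at -0.15, against 0.08. NDUFB4 ranged from -0.93 to -0.79. NDUFA5 ranged from -0.70 to -0.54, and with the mean of its probe sets (-0.54) it was within 1.5-fold. Of 302 values of named subunits 287 moved by less than 0.18 and 15 by more. Of these, with the mean of probe sets NDUFC1 was at -0.71, beyond 1.5-fold, and SDHC at 0.02. Without _s_at, _x_at and _a_at probe sets SDHC was at -0.33 and COX5B at -0.26. Apart from the values named here, the causes of these changes were not tested. No paired analysis was possible because each line has 1 array. One array a line limits every value.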

Other observations

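Transcripts that share a locus with the subunits were measured but belong to no complex. The noncoding transcript NDUFB2-AS1 was at -0.26, where NDUFB2 was at 0.08. NDUFV2-AS1 was at -0.22 on its probe set above the floor, where NDUFV2 was at -0.30, and NDUFV1-DT was at 0.15, where NDUFV1 was at -0.05. The strand each probe set reads was not checked here, so a gene and its antisense partner may share signal.

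Subunits read only by probe sets with several symbols also lay within 1.5-fold. The probe set for UQCRH and its near-identical copy UQCRHL was at 0.27, the bright one for NDUFC2 and its readthrough NDUFC2-KCTD14 at -0.25, and the one for NDUFS5 and RPL10 at 0.15.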
